A study of Mus musculus with 5 samples.

Results

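The genes described here code for the collagens, laminins and other proteins that build the extracellular matrix and the basement membrane of mouse skeletal muscle. They were chosen by name: every protein-coding gene called Col, a number, a and a number, or Lama, Lamb or Lamc and a number, and in addition Fn1, Sparc, Fbn1, Nid1, Nid2, Eln and Hspg2. This gave 62 of the 35275 genes in the table, of which 21397 are annotated as protein coding. The rule itself uses names only. The 62 genes were 11 fibrillar collagens, 6 collagen IV genes, 27 other collagens, 11 laminins and the 7 added genes.

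Collagens are proteins of 3 chains wound into a triple helix. Fibrillar collagens (types I, II, III, V, XI, XXIV and XXVII) pack into the fibres that carry load in the epimysium, perimysium and endomysium of muscle. Collagen IV forms the sheet-like network of the basement membrane that wraps each muscle fibre and vessel, laminins form a second network in the same sheet from an alpha, a beta and a gamma chain, and nidogens and perlecan link the networks. The remaining collagens include microfibrils (type VI), fibril-associated chains (such as types XII and XIV), anchoring fibrils (type VII) and chains of vessel walls and basement membranes (types VIII, XV and XVIII).

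The muscle was the gastrocnemius, a calf muscle, of female NSG mice labelled as wild type in genotype and 12 weeks in age. NSG mice are immunodeficient through mutations of Prkdc (scid) and Il2rg, which leave them without mature lymphocytes, natural killer cells included, whereas myeloid cells such as macrophages are present. All animals had been given extracellular vesicles from MCF-10A/miR122 cells through the tail vein: 10 doses of roughly 10 µg, 2 in each of 5 weeks, with tissue collected 2 days after the final dose. MCF-10A is a human mammary epithelial line that forms no tumours, and miR-122 is a microRNA abundant in liver. There were 5 libraries, numbered 1 to 5, from about 20 mg of tissue each, and all belong to this single group, so that no treated library was compared with an untreated one. The labels do not state that each number is a separate animal, and every SD and p-value below therefore measures the spread between these samples only.

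The libraries held 16674504 (library 3) to 25407988 reads (library 5). Levels are in FPKM, the reads of a gene scaled to its length in kilobases and to the read total of the library. Library 3 was the highest of the 5 for 37.4% of the 10710 genes that averaged at least 1 FPKM. Results that rest on it are given with and without it. Median-of-ratios scaling, which sets the median gene to the same level in each library, shifted libraries 1 to 5 by 0.057, 0.096, 0.093, -0.16 and -0.099 on the log2 scale. After it library 3 was the highest for 27.0% and the lowest for 28.6% of the 10710 genes, and library 4 the highest for 27.5%. Genes averaging at least 1 FPKM whose highest or lowest library changes under this scaling are named where those libraries are counted.

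Of the 62 genes, 37 averaged at least 1 FPKM, and each of these reached 1 FPKM in all 5 libraries. They comprised 8 of 11 fibrillar collagens, 2 of 6 collagen IV genes, 14 of 27 other collagens, 6 of 11 laminins and all 7 added genes. A mean of 10 FPKM was reached by 20 genes and a mean of 100 FPKM by 4, namely Sparc, Col1a1, Col1a2 and Col3a1. The gene closest to the limit on the inside was Col20a1 at 2.004 FPKM, and those closest on the outside were Col13a1 at 0.902 and Lamb3 at 0.871 FPKM. Leaving out Eln, whose recovered reads rest on a length far from its annotated one, the other 36 genes took 0.835% ± 0.229 of the reads of a library, and the collagens among them 0.606% ± 0.193 (SD, n = 5).

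**Figure D1:**
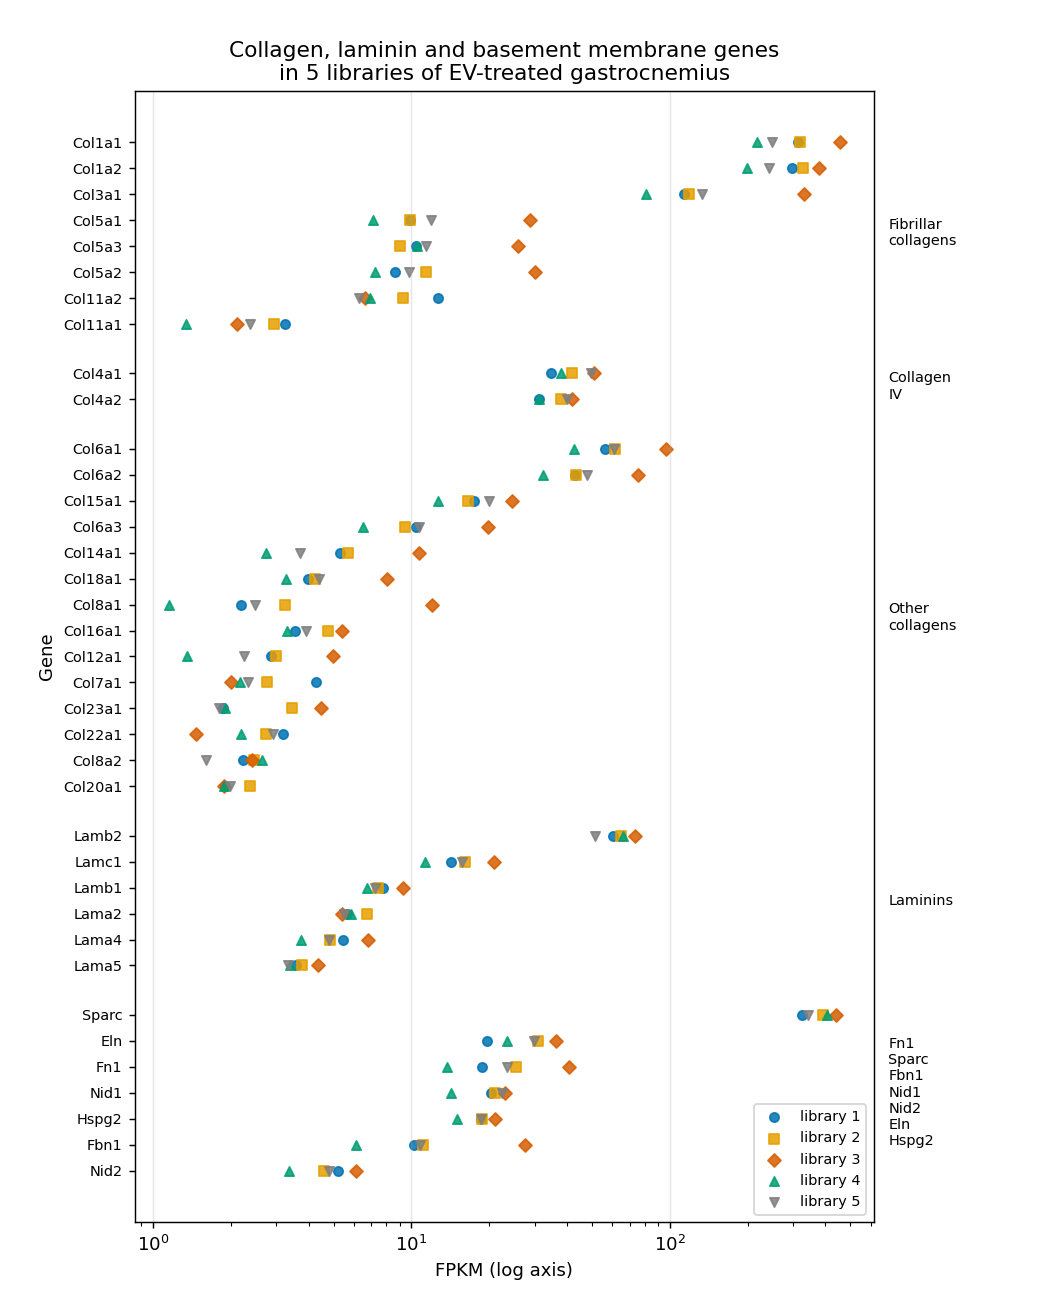
Level of each of the 37 genes that averaged at least 1 FPKM (FPKM, log axis), with 1 marker per library and the genes grouped by class in order of their mean. Type I and III collagens and Sparc lie above 80 FPKM in every library, and the library 3 marker is rightmost for 30 of the 37 genes.

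Fibrillar collagens carried most of the collagen transcript. The 8 measured genes summed to 771, 807, 1260.1, 531 and 665 FPKM in libraries 1 to 5, which is 75.6% ± 2.38 of all collagen FPKM (SD, n = 5). Type I and type III chains alone made up 71.0% ± 2.27 of it. The share of fibrillar collagens lay between 72.2% and 77.7% in all 5 libraries. The highest of the 5 summed levels was 2.37 times the lowest, 1.52 times without library 3, and 1.99 times under median-of-ratios scaling.

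Col1a1 and Col1a2 code for the 2 kinds of chain of type I collagen, the main collagen of tendon, bone and muscle connective tissue. Col1a1 (ENSMUSG00000001506, GRCm38 chr11:94936224-94953042) had 314, 318, 456, 218 and 248 FPKM in libraries 1 to 5 and averaged 311 ± 91.6 FPKM. Col1a2 (ENSMUSG00000029661, chr6:4504814-4541544) had 298, 328, 379, 199 and 242 FPKM and averaged 289 ± 70.8 FPKM. Both genes were highest in library 3 and lowest in library 4. The log2 ratio of Col1a1 to Col1a2 was 0.093 ± 0.12, above 0 in 4 of 5 libraries (sign-flip permutation test over libraries, exact and two-sided, p = 0.188, Benjamini-Hochberg adjusted over 17 ratios 0.228). The protein of type I collagen holds more alpha-1 than alpha-2 chains, whereas the 2 transcripts were within their spread of each other per length.

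With 5 libraries that test cannot give a p below 0.0625, and the smallest adjusted value over the 17 ratios is 0.0817. No ratio here could therefore pass 0.05, and the number of libraries with the same order is given beside each. Of the 17 ratios, 13 had the same sign in all 5 libraries, each at p = 0.0625 and adjusted p = 0.0817 in the exact permutation test.

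Col3a1 codes for type III collagen, which mixes with type I in thin, extensible fibres and is known for its part in tissue repair. Col3a1 (ENSMUSG00000026043, chr1:45311538-45349706) had 114, 118, 332, 81.1 and 133 FPKM in libraries 1 to 5. Library 3 was 2.501 times the next highest library, the others overlapping within a range of 81.1 to 133 FPKM. The mean of 156 ± 100.3 FPKM becomes 112 ± 21.8 FPKM without library 3. Relative to Col1a1, Col3a1 was lower in all 5 libraries, with a log2 ratio of -1.13 ± 0.44. That ratio was -0.46 in library 3 and -1.46 to -0.90 in the other libraries. As a share of collagen FPKM, Col3a1 made up 20.5% in library 3 and 11.3% to 14.4% in the rest.

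Type V collagen nucleates the type I and III fibrils and limits their width, and its 3 chains had similar means. Col5a1 (ENSMUSG00000026837, chr2:27886425-28039514) had 9.87, 9.88, 28.9, 7.09 and 11.9 FPKM in libraries 1 to 5. Col5a2 (ENSMUSG00000026042, chr1:45374321-45503282) had 8.65, 11.4, 30.1, 7.20 and 9.74 FPKM. Col5a3 (ENSMUSG00000004098, chr9:20770050-20815067) had 10.4, 9.06, 25.9, 10.5 and 11.4 FPKM. All 3 were highest in library 3, at 2.27 to 2.65 times the next library, with no overlap between library 3 and the rest. Their means were 13.5 ± 8.74, 13.4 ± 9.44 and 13.5 ± 7.01 FPKM for Col5a1, Col5a2 and Col5a3. The log2 ratio to Col5a1 was -0.035 ± 0.18 for Col5a2 (p = 0.75, adjusted 0.797) and 0.052 ± 0.27 for Col5a3 (p = 0.875, adjusted 0.875; exact permutation tests, n = 5). Neither difference exceeded the spread between libraries. Col5a2 lies tail to tail with Col3a1 on chromosome 1, with 24614 bases and no protein-coding gene between them.

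Type XI collagen is the counterpart of type V in cartilage, and its alpha-1 and alpha-2 genes were not highest in library 3, unlike the other 6 measured fibrillar genes. Col11a2 (ENSMUSG00000024330, chr17:34039437-34066685) had 12.7, 9.30, 6.58, 6.88 and 6.25 FPKM in libraries 1 to 5, a mean of 8.34 ± 2.71 FPKM. Col11a1 had 3.23, 2.93, 2.10, 1.35 and 2.37 FPKM and averaged 2.40 ± 0.738 FPKM. Both were highest in library 1 and were within the range of the other libraries in library 3. The remaining fibrillar genes were below 1 FPKM on average. Col2a1, the main collagen of cartilage, reached 1.19 FPKM in library 1 and Col24a1 2.31 FPKM in library 1, against at most 0.719 and 0.551 FPKM elsewhere, and Col27a1 was at most 0.654 FPKM. All 6 genes of the cartilage and bone list were below 1 FPKM on average. Sox9, a transcription factor of cartilage that other cells also express, had 0.599 to 1.19 FPKM, whereas Hapln1 averaged 0.0850 and Ibsp 0.0522 FPKM, and Matn1 was listed at 0 in all 5 libraries.

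The promoter windows of the fibrillar genes Col1a2, Col3a1 and Col11a2 differed in composition. The windows run from 250 bases before to 50 bases after the RefSeq start (GRCm38.p6), and 44 of the 62 genes have one. They are printed 5′ to 3′ on the strand of the gene, here the plus strand, at chr6:4505368-4505667, chr1:45311288-45311587 and chr17:34038888-34039187. Capitals mark 3 motifs on either strand. CCAAT, which reads ATTGG when it lies on the opposite strand, is the motif of the factor NF-Y. GGGCGG, which reads CCGCCC there, is a core of Sp1 sites. TATAAA, which reads TTTATA there, is a form of the TATA box. By the gene positions given above, the Col1a2 window lies inside its gene, and the Col11a2 window ends before its gene begins. The RefSeq starts of these genes thus differ from the annotated ones, and the composition is that of the RefSeq start only. The motifs do not overlap each other in these windows.
Col1a2: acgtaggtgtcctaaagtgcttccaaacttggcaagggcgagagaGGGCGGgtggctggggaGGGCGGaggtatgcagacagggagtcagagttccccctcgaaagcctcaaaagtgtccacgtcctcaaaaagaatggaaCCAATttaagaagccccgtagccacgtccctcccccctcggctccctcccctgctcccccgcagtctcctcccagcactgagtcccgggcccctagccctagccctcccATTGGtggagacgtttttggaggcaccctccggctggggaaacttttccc
Col3a1: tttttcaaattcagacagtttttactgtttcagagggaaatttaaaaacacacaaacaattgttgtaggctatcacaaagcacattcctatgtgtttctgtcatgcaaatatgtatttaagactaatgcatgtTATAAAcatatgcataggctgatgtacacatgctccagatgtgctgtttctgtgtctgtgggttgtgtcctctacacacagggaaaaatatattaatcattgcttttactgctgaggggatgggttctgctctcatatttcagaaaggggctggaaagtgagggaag
Col11a2: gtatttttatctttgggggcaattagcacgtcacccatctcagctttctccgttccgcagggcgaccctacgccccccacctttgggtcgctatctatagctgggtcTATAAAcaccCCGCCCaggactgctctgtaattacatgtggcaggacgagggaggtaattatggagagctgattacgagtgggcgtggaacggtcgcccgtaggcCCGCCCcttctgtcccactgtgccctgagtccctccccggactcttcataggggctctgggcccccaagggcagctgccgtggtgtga
The G and C content was 61.0%, 37.7% and 59.0% in this order, against a median of 52.7% over all windows. Col1a2 held 2 CCAAT and 2 GGGCGG matches, Col3a1 only 1 TATAAA match, and Col11a2 2 GGGCGG and 1 TATAAA match. CCAAT was found for 15 of the 44 genes and in 37.4% of all 32851 windows of that length. The first count is per gene and the second per window, so the 2 are not the same measure. GGGCGG was found for 28 of 44 genes and in 35.7% of all windows, and TATAAA for 5 of 44 genes and in 13.6% of all windows. A match describes the letters and does not show that a factor binds there.

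Collagen IV was measured from 1 pair of genes. Col4a1 (ENSMUSG00000031502, chr8:11198423-11312826, minus strand) had 34.7, 42.0, 50.7, 37.8 and 49.4 FPKM in libraries 1 to 5 and averaged 42.9 ± 7.01 FPKM. Col4a2 (ENSMUSG00000031503, chr8:11312805-11449287, plus strand) had 31.3, 38.0, 41.9, 31.2 and 40.04 FPKM and averaged 36.5 ± 4.99 FPKM. Their products form the common collagen IV trimer of most basement membranes. The log2 ratio of Col4a1 to Col4a2 was 0.23 ± 0.074, above 0 in all 5 libraries. Library 3 was 1.03 times library 5 for Col4a1 and 1.05 times for Col4a2, and under median-of-ratios scaling both genes were highest in library 5.

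The other 4 collagen IV genes were below 1 FPKM. Col4a5, whose chain joins those of Col4a3 and Col4a4 in the membranes of kidney and cochlea, had 0.914, 0.660, 0.725, 0.565 and 0.837 FPKM. Its log2 ratio to Col4a1 was -4.65 ± 0.26, below 0 in all 5 libraries. Col4a4, Col4a3 and Col4a6 reached at most 0.208, 0.161 and 0.130 FPKM.

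Col4a1 and Col4a2 start head to head, and their annotated starts overlap by 22 bases, which is why their start regions are printed together. The RefSeq windows lie at chr8:11312777-11313076 on the minus strand for Col4a1 and chr8:11312555-11312854 on the plus strand for Col4a2, and they share 78 bases. The sources used here do not give the strand setting of the counting, so reads in the shared stretch cannot be assigned. Capitals have the same meaning as above.
Col4a1: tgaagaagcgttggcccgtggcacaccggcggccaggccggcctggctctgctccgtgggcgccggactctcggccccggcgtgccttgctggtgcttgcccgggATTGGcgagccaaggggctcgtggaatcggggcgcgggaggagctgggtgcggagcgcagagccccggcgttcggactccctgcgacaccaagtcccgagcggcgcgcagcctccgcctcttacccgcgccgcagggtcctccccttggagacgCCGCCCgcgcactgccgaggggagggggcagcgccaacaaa
Col4a2: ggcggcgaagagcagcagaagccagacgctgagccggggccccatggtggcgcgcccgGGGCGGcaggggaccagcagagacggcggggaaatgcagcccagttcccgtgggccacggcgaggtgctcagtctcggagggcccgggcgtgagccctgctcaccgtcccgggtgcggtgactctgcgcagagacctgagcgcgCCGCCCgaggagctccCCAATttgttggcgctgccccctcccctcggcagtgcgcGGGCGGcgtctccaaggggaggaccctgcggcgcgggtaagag
Both windows were rich in G and C, at 74.0% and 73.7%, and neither held TATAAA. Each held 1 CCAAT match, beginning at base 106 of the Col4a1 window and at base 219 of the Col4a2 window. GGGCGG matched at 1 place in the Col4a1 window and at 3 in the Col4a2 window. The Col4a1 match, at base 260, and the Col4a2 match at base 258 are the same bases of the shared stretch, read from opposite strands. Col4a4 and Col4a3 on chromosome 1 (71 bases between them) and Col4a6 and Col4a5 on chromosome X (1308 bases) also lie head to head.

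Collagen VI led the other collagens, which summed to 158, 165, 269, 116 and 166 FPKM in libraries 1 to 5, or 16.5% ± 0.939 of collagen FPKM. Collagen VI forms beaded microfibrils next to the basement membrane of muscle fibres, and mutations of its genes cause muscle disease in humans. Col6a1 (ENSMUSG00000001119, chr10:76708792-76726168) had 56.0, 61.3, 96.5, 42.6 and 60.8 FPKM. Col6a2 (chr10:76595762-76623630) had 43.0, 43.3, 75.0, 32.2 and 47.7 FPKM. Col6a3 (chr1:90765923-90843971) had 10.4, 9.47, 19.7, 6.48 and 10.7 FPKM. Library 3 was above and library 4 below all others for each of these chains. Library 3 reached 1.57 times the next library for both Col6a1 and Col6a2, and 1.85 times for Col6a3. The log2 ratio of Col6a1 to Col6a2, which lie on the same strand with 85161 bases between them, was 0.39 ± 0.058 and that of Col6a3 to Col6a1 was -2.42 ± 0.14, each with the same sign in all 5 libraries. The 3 other chains were low: Col6a6 was at most 1.21 FPKM, Col6a5 at most 0.0387 and Col6a4 at most 0.0114 FPKM.

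Col15a1 and Col18a1 code for 2 related collagens of basement membrane zones. Col15a1 had 17.5, 16.5, 24.4, 12.7 and 19.9 FPKM in libraries 1 to 5. Col18a1 had 3.97, 4.25, 8.07, 3.28 and 4.40 FPKM. Col15a1 exceeded Col18a1 in all 5 libraries, by a log2 ratio of 1.75 ± 0.19. Both were highest in library 3, at 1.23 and 1.84 times the next library.

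The next collagens by level were fibril-associated or short-chain ones. Col14a1, a fibril-associated collagen, averaged 5.63 ± 3.07 FPKM and Col12a1, of the same kind, 2.89 ± 1.34 FPKM. In library 3 Col14a1 reached 10.7 FPKM against 2.74 to 5.69 elsewhere, and Col12a1 4.99 FPKM against 1.35 to 3.0. Col8a1, a short-chain collagen of vessel walls, varied most of all 37 genes: it had 2.19, 3.24, 12.0, 1.15 and 2.47 FPKM, a coefficient of variation (CV) of 105%, or 38.3% without library 3. Its mean of 4.21 ± 4.41 FPKM becomes 2.26 ± 0.866 FPKM without library 3, 1.86-fold lower. The partner chain Col8a2 had 2.24, 2.45, 2.41, 2.64 and 1.60 FPKM and was highest in library 4.

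Among the least abundant of the measured collagens, library 3 was not always the highest. Col7a1, the collagen of anchoring fibrils, had 4.27, 2.76, 2.01, 2.17 and 2.34 FPKM in libraries 1 to 5. Col22a1, a collagen of tissue junctions such as the muscle-tendon junction, had 3.18, 2.74, 1.47, 2.18 and 2.92 FPKM. Both were highest in library 1 and lowest in library 3, and under median-of-ratios scaling Col22a1 was highest in library 5. Col16a1 averaged 4.19 ± 0.878 FPKM and the transmembrane collagen gene Col23a1 2.69 ± 1.21 FPKM, both highest in library 3. Col20a1 had 2.004 ± 0.216 FPKM and was highest in library 2, at 2.38 FPKM.

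Per library, the summed fibrillar collagens exceeded the summed collagen IV genes by a log2 ratio of 3.28 ± 0.38, or 9.72-fold, in all 5 libraries. The ratio was 3.75 in library 3 and 2.88 to 3.53 elsewhere, and 3.16 ± 0.31 without library 3. The other collagens exceeded collagen IV by 1.09 ± 0.31 on the log2 scale, and fibrillar collagens exceeded the other collagens by 2.19 ± 0.12. These orders hold for sums: collagen IV is 2 genes of similar level and the other classes are a few abundant genes with many low ones, so that medians over members give the opposite order, with log2 ratios to collagen IV of -1.52 for fibrillar and -3.04 for other collagens. Collagen IV took 5.71% of collagen FPKM in library 3, the lowest of the 5, and 6.63% to 9.71% in the other libraries.

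**Figure D2:**
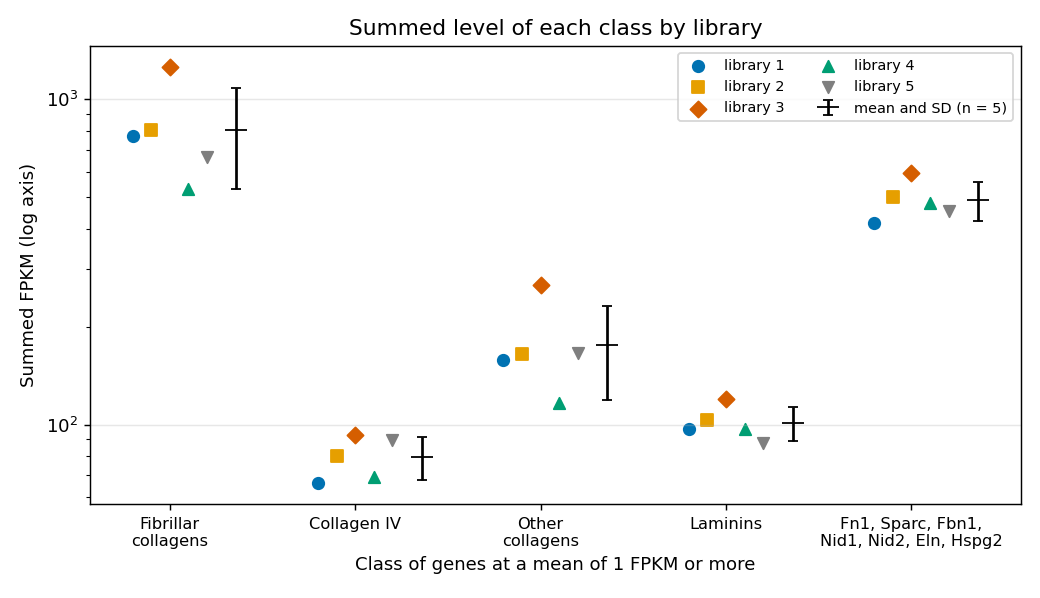
Summed level of each class in each library (FPKM, log axis), with the mean and SD over 5 libraries beside the markers. Fibrillar collagens reach 1260.1 FPKM in library 3 and 531 to 807 in the others, whereas collagen IV spans 66.0 to 92.6 FPKM over all libraries.

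Laminins were led by the beta-2 chain. Lamb2 (ENSMUSG00000052911, chr9:108479736-108490530), the beta chain known from neuromuscular junctions, had 60.4, 64.7, 73.3, 65.9 and 51.1 FPKM in libraries 1 to 5. Lamb1, the widespread beta-1 chain, had 7.77, 7.44, 9.26, 6.70 and 7.21 FPKM. Lamc1, the common gamma chain, had 14.2, 16.1, 20.8, 11.3 and 15.6 FPKM. Lamb1 and Lamc1 were highest in library 3 and lowest in library 4, and Lamb2 was lowest in library 5. Under median-of-ratios scaling Lamb1 was lowest in library 2, and Lamb2 was highest in library 4. The log2 ratio of Lamb1 to Lamb2 was -2.88 ± 0.17, below 0 in all 5 libraries.

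Lama2, the alpha chain of the muscle fibre laminin whose loss causes a congenital muscular dystrophy in humans and mice, had similar levels in the 5 libraries. Lama2 (ENSMUSG00000019899, chr10:26980036-27619758) had 5.65, 6.74, 5.39, 5.82 and 5.47 FPKM, a CV of 9.35%, or 9.54% without library 3. Its lowest value was in library 3, and its highest in library 2, or in library 4 under median-of-ratios scaling. Lama4, an alpha chain of vessel walls, had 5.45, 4.84, 6.77, 3.73 and 4.79 FPKM. Lama5, the alpha chain of mature vessels and many epithelia, had 3.58, 3.79, 4.34, 3.38 and 3.32 FPKM. Lama2 exceeded Lama5 in all 5 libraries, by a log2 ratio of 0.54 ± 0.17. Against Lama4 it was higher in 4 of 5 libraries, with a log2 ratio of 0.17 ± 0.32 that was -0.28 in library 3 (exact permutation test, p = 0.313, adjusted 0.354). Lamc1 exceeded Lama2 by 1.26 ± 0.34, with the highest ratio, 1.77, in library 3. The epithelial laminin chains Lama3 and Lamb3 reached at most 0.232 and 1.48 FPKM, Lamc3 at most 0.129, and Lama1, the alpha chain of early embryos, at most 0.0252 FPKM.

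**Figure D3:**
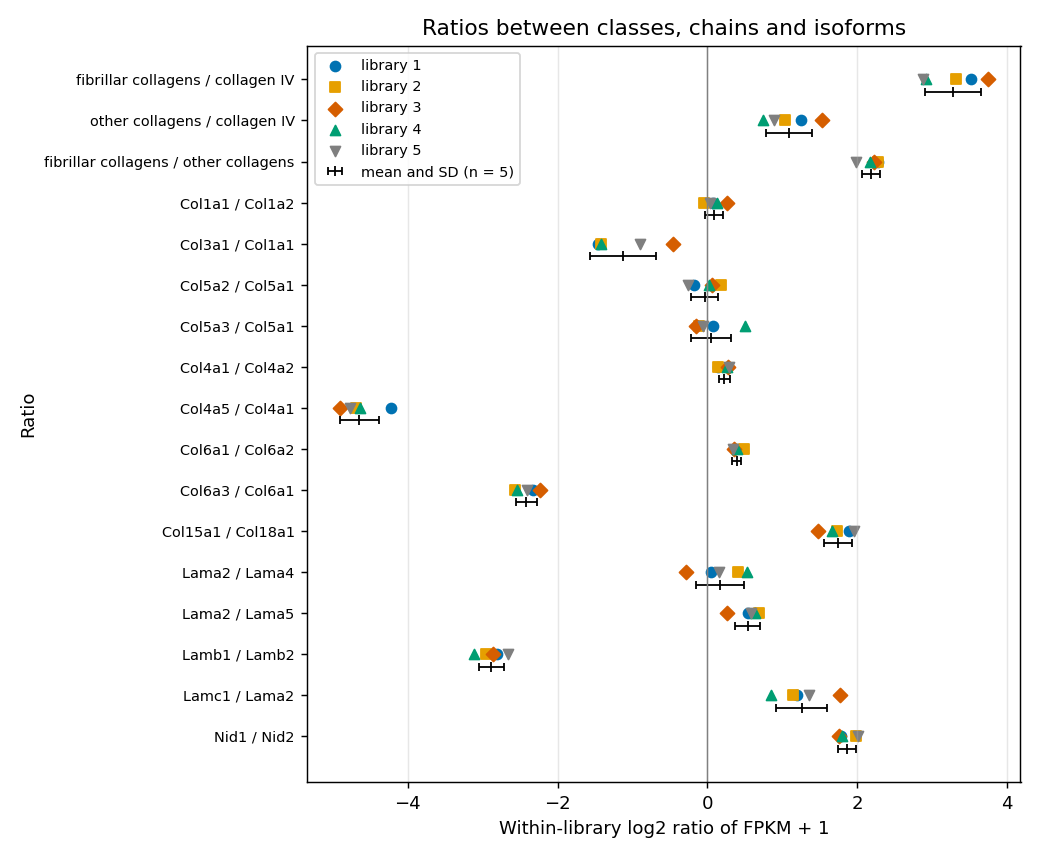
The 17 ratios within each library as log2 of FPKM + 1, with 1 marker per library and the mean and SD over 5 libraries below the markers. The Col6a1 to Col6a2 and Col4a1 to Col4a2 ratios had an SD of 0.058 and 0.074, and the Col3a1 to Col1a1 ratio one of 0.44, or 0.27 without library 3, which lies nearest to 0.

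Sparc codes for a secreted protein that binds collagen and assists its deposition, and it had the highest mean of all 62 genes. Sparc (ENSMUSG00000018593, chr11:55394500-55423183) had 324, 390.3, 438, 406 and 343 FPKM in libraries 1 to 5 and averaged 380.3 ± 46.6 FPKM. Its libraries were close together, with a CV of 12.3%, and library 4, the lowest for most collagens, was the next highest after library 3. Under median-of-ratios scaling library 4 was the highest for Sparc.

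Elastic fibres and their scaffold were measured from Eln, the gene of elastin, and Fbn1, the gene of fibrillin-1. Eln had 19.6, 30.8, 36.3, 23.4 and 29.7 FPKM, and library 3 was 1.18 times library 2. Fbn1 had 10.2, 11.04, 27.5, 6.09 and 10.8 FPKM, and library 3 was 2.49 times the next library. Fn1, the gene of fibronectin, which cells assemble before collagen is laid down, had 18.7, 25.4, 40.8, 13.8 and 23.4 FPKM. Fbn1 thus had 1 library far above the rest. For Fn1 library 3 was 1.61 times the next library, with 13.8 to 25.4 FPKM in the others, and the Eln values were spread more evenly.

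Nid1, Nid2 and Hspg2 code for linkers of the basement membrane, with CVs of 17.4%, 20.7% and 11.7%. Nid1 (nidogen-1) had 20.4, 21.1, 22.9, 14.2 and 22.3 FPKM. Nid2 (nidogen-2) had 5.18, 4.58, 6.09, 3.35 and 4.79 FPKM. Hspg2 (perlecan, a heparan sulphate proteoglycan) had 18.5, 18.7, 21.1, 15.1 and 18.5 FPKM. All 3 were lowest in library 4. The log2 ratio of Nid1 to Nid2 was 1.87 ± 0.12, above 0 in all 5 libraries.

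Below a mean of 1 FPKM lay 25 genes, of which 21 were above 0 in all 5 libraries, 6 reached 1 FPKM in at least 1 library and 7 averaged under 0.1 FPKM. Besides those named above, they included Col13a1 (at most 1.13 FPKM), Col26a1 (0.970), Col28a1 (0.454), Col9a2 (0.363), Col9a1 (0.338), Col17a1 (0.204), Col9a3 (0.159), Col19a1 (0.121) and Col25a1 (0.117), and Col10a1, the collagen of hypertrophic cartilage. Col10a1, Lama1, Col6a4 and Col19a1 were at 0 in at least 1 library. Where a library had no read, a count of 0 allows at most 0.0124 to 0.0575 FPKM for these genes (3 reads), so they were not detectable at this depth rather than absent. That limit covers counting error only. Of the 25 genes, 7 were highest in library 3 and 6 in library 1, against 30.1% and 22.9% of the 10130 genes above 0 with a mean below 1 FPKM.

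Most of the 37 genes had their extremes in the same libraries. Library 3 was the highest for 30 of 37 (81.1%), against 37.4% of the 10710 genes. Library 4 was the lowest for 25 of 37 (67.6%), against 38.0%. Both held for 23 genes, and the share of all genes with both was not computed. Libraries 1, 2, 4 and 5 were the highest for 4, 2, 1 and 0 of the 37 genes, against 21.2%, 23.2%, 10.5% and 7.68% of all genes. Library 3 was the lowest for 3 genes (Lama2, Col7a1 and Col22a1; 17.1% of all genes). Genes measured in the same libraries are not independent of each other.

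The classes differed in how far library 3 lay above the rest. Library 3 was at least 1.5 times the next library for 13 of 37 genes (35.1%), against 7.25% of all genes. These were 4 of 8 fibrillar collagens (Col3a1, Col5a1, Col5a2 and Col5a3), 7 of 14 other collagens (Col6a1, Col6a2, Col6a3, Col8a1, Col12a1, Col14a1 and Col18a1), Fbn1 and Fn1 of the added genes, and none of the 2 collagen IV genes or the 6 laminins. The median over genes of library 3 divided by the highest other library was 1.85 for fibrillar collagens, 1.43 for other collagens, 1.18 for the added genes, 1.17 for laminins and 1.04 for collagen IV, against 0.923 for all genes. Whether the classes differ in this was not tested.

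Scaling of the libraries moved some of these counts. Under median-of-ratios scaling library 3 was the highest for 24 of 37 genes (27.0% of all genes), library 4 the lowest for 21 (18.6%), and library 3 at 1.5 times the next library or more for 11 (5.79%). The 6 genes no longer highest in library 3 were Col4a1, Col4a2, Nid1, Hspg2 and Lamb2, all of basement membranes, and Sparc. The 6 fibrillar and 10 other collagens that were highest in library 3 stayed so, Col15a1 and Col18a1 of basement membrane zones among them. So did Lamb1, Lamc1, Lama4, Lama5 and Nid2, also of basement membranes, and Fn1, Fbn1 and Eln. Basement membrane genes were thus found on both sides. Of the other genes, Lama2 became highest in library 4 and Col22a1 in library 5. The lowest library became 1 for Lama5, Col16a1, Col23a1 and Col4a2, 2 for Lamb1, and 3 for Col11a2 and Col20a1. Col6a1 and Col6a2 were the genes no longer at 1.5 times the next library.

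**Figure D4:**
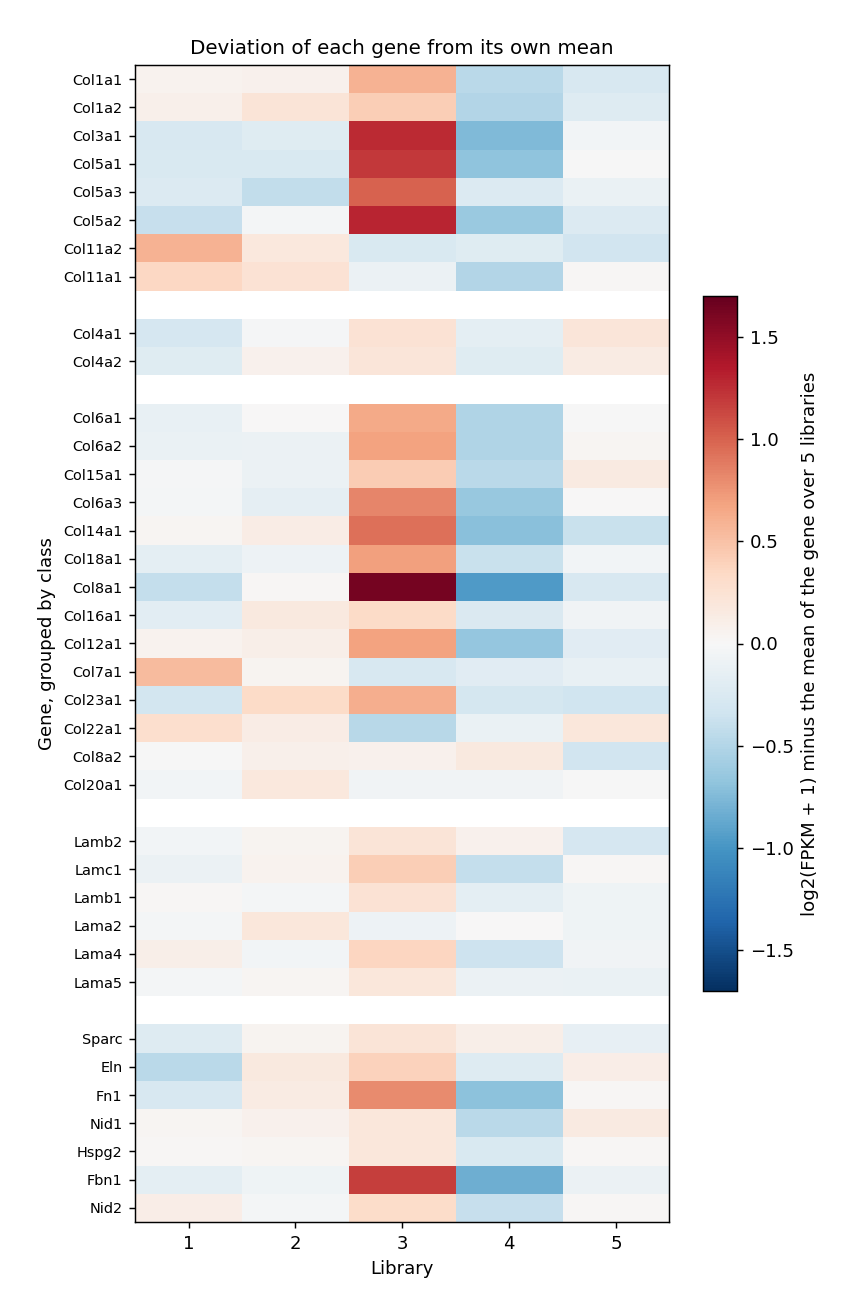
Deviation of each of the 37 genes from its own mean over the 5 libraries on the log2(FPKM + 1) scale, 1 column per library and genes grouped by class. The library 3 column is darkest red for Col8a1, Col5a2, Col3a1, Col5a1 and Fbn1 and pale for collagen IV and most laminins.

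The spread between libraries was compared with that of genes of similar level in limma's fit over all 10710 genes on the log2(FPKM + 1) scale. No gene, and so none of the 37, had a variance above the trend at an adjusted p under 0.05. The smallest adjusted p among the 37 was 0.640, for Col8a1. Its variance was 24.7 times the trend, at an unadjusted p of 0.00473 in the same test. With 5 libraries and 10710 genes the test thus has little power. The absence of genes at the adjusted threshold does not show that their spread was ordinary. At an unadjusted p under 0.05 there were 9 of 37 genes (Col8a1, Col5a2, Fbn1, Col3a1, Col5a1, Col14a1, Col5a3, Fn1 and Col6a3), against 616 of all genes (5.75%), and without library 3 there were 2 of 37, against 5.32% of all genes. The median variance over the trend was 3.26 for the 37 genes and 0.967 for all genes. The median CV was 27.3% for the 37 genes and 16.3% for all genes, and 17.9% and 14.2% without library 3. Each of the 36 genes other than Eln had a CV above that of counting error, whose median was 2.41%, with 131 to 45075 reads per gene and library.

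Enzymes that fold and modify collagen were also mostly highest in library 3. Of 18 such genes with a mean of at least 1 FPKM, 13 were highest there, against 37.4% of all genes, and 12 under median-of-ratios scaling, against 27.0%. The same 2 shares of all genes are the background of each such count below. The sum over the whole list of 19 was 379 FPKM in library 3 and 226 to 253 in the other libraries. P4hb, a subunit of prolyl 4-hydroxylase and a disulphide isomerase, had 115 FPKM in library 3 and 65.2 to 73.2 elsewhere. Serpinh1, the collagen chaperone HSP47, had 82.2 FPKM in library 3 and 37.4 to 49.0 elsewhere, and the galactosyltransferase gene Colgalt1 19.8 FPKM in library 3 and 14.1 to 15.6 elsewhere. P4ha1 and P4ha2, the main catalytic subunits of prolyl 4-hydroxylase, were within the range of the other libraries in library 3, at 14.8 and 11.6 FPKM.

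Genes of procollagen processing and crosslinking summed to 177 FPKM in library 3 and 80.6 to 101 FPKM in the other libraries, and 7 of 9 were highest in library 3, with and without the scaling. Pcolce, an enhancer of the procollagen C-proteinase, had 63.7 FPKM in library 3 and 37.5 to 44.7 elsewhere. Loxl1, a lysyl oxidase that acts on elastin, had 35.6 FPKM in library 3 and 10.6 to 14.6 elsewhere, and Bmp1, the C-proteinase itself, 16.2 FPKM and 9.61 to 14.6. Lox, the lysyl oxidase that crosslinks collagen and elastin, had 33.0 FPKM in library 3 and 5.48 to 8.12 elsewhere.

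Receptors for the matrix summed to 308 FPKM in library 3 and 187 to 244 in the other libraries, with 9 of 10 highest in library 3, and 6 under the scaling. Itgb1, the beta-1 integrin subunit shared by the collagen and laminin receptors, had 84.1 FPKM in library 3 and 46.2 to 61.6 elsewhere. Dag1 (dystroglycan), which links laminin to dystrophin, was at 62.3 FPKM and 46.8 to 60.9. Itga7, which pairs with beta-1 as the main laminin integrin of muscle fibres, had 83.0 FPKM in library 3 and 30.2 to 48.3 elsewhere. Ddr2, a kinase receptor for fibrillar collagen, was highest in library 2, at 3.62 FPKM.

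Other genes of basement membranes and elastic fibres summed to 173 FPKM in library 3 and 130.2 to 178 FPKM in the others, with 7 of 11 genes highest in library 3 both with and without the scaling. Without Ltbp4, the most abundant, the sum was 119 FPKM in library 3 and 71.5 to 101 in the others. Ltbp4, a binding protein of latent TGF-beta that also acts in elastic fibre assembly, was lowest in library 3 at 54.2 FPKM, against 57.3 to 77.2. Fbln2 (fibulin-2) had 47.1 FPKM in library 3 and 29.1 to 37.1 elsewhere, and Fbln1 (fibulin-1) 12.8 FPKM within 8.04 to 18.5. Emilin1 and Efemp2 (fibulin-4), both of elastic fibres, had 12.6 and 12.4 FPKM in library 3, against 4.81 to 6.69 and 4.50 to 6.12 elsewhere. Regulators of matrix genes, chiefly of the TGF-beta pathway, summed to 128 FPKM in library 3 and 73.3 to 95.4 elsewhere, with 5 of 9 highest in library 3 with and without the scaling. Of the 3 most abundant, the ligand gene Tgfb3 had 25.8 FPKM in library 3 and 16.9 to 21.3 elsewhere, the signal transducer gene Smad3 15.7 within 15.1 to 22.6, and Ccn2 (also called Ctgf) 19.4 within 4.21 to 20.5 FPKM. Tgfb1 had 15.0 FPKM in library 3 and 5.27 to 6.10 elsewhere.

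Markers of several cell types moved with the high collagen values of library 3. Their part in the collagen result was not tested, and in whole tissue more cells of a type and more RNA per cell cannot be told apart. Macrophage markers summed to 332 FPKM in library 3 and 81.3 to 109.7 FPKM in the other libraries, and all 8 were highest in library 3. The most abundant were Lyz2, at 172 FPKM in library 3 and 29.7 to 46.8 elsewhere, C1qa, at 58.4 and 21.5 to 29.0, and C1qc, at 32.4 and 11.6 to 15.2. Itgam averaged at least 1 FPKM only through library 3, at 4.30 FPKM against 0.376 to 0.936 elsewhere, so its place in the count was built in. Adipocyte markers summed to 281 FPKM in library 3 and 40.1 to 138 elsewhere, and all 5 were highest in library 3. They were led by Cfd, at 203 and 29.8 to 109, Adipoq, at 33.6 and 3.55 to 14.0, and Cidec, at 19.8 and 2.92 to 7.32 FPKM. Lep likewise averaged at least 1 FPKM only through library 3, at 3.83 FPKM against 0.157 to 0.657 elsewhere. Library 4, the lowest for most collagens, was second for adipocyte markers at 138 FPKM.

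Markers of regenerating fibres and of activated matrix also stood apart in library 3. Myog and Myod1, transcription factors of muscle differentiation, and Myl4, an embryonic light chain, had 30.1, 12.8 and 30.4 FPKM in library 3, against ranges of 6.45 to 11.4, 5.46 to 8.80 and 1.65 to 2.85 FPKM elsewhere. The regenerating fibre list summed to 112 FPKM in library 3 and 18.1 to 25.9 in the other libraries, with 5 of 5 genes at 1 FPKM or more highest in library 3. That count is partly built in. Mymk passed the limit only through library 3, at 22.1 FPKM against 0 to 1.05 elsewhere. Pax7, highest in library 1, stayed below the limit on average and was not counted. Genes of activated matrix summed to 167 FPKM in library 3 and 24.2 to 45.3 elsewhere, with 5 of 6 highest in library 3. Of these, Postn (periostin) had 61.7 FPKM in library 3 and 2.72 to 6.13 elsewhere, and Thbs2 14.2 and 7.18 to 12.0 FPKM. Lox, given above, is on that list too. Cycling genes were all below 1 FPKM on average, led by Top2a, Ccnb1 and Cdk1, and summed to 4.40 FPKM in library 3 and 0.196 to 1.01 elsewhere.

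The fibroblast and fibro-adipogenic list holds markers of the cells that make most fibrillar collagen. It summed to 472 FPKM in library 3 and 373 to 483 FPKM in the others, and without Dcn, its most abundant gene, to 269.8 FPKM in library 3 and 169 to 184 in the others. Of its 8 genes, 6 were highest in library 3, and 4 under the scaling. Dcn (decorin) was at 202 FPKM in library 3 and 196 to 300.3 elsewhere, Dpt (dermatopontin) at 61.7 and 48.2 to 56.5, and Ly6a (Sca-1) at 83.5 and 43.1 to 47.7 FPKM. Mfap5, a microfibril gene, had 31.2 FPKM in library 3 and 8.58 to 10.5 elsewhere, and Cd34, Lum and Pi16 were also highest in library 3, at 41.9, 26.01 and 20.5 FPKM against at most 32.8, 24.3 and 18.8. Pdgfra, a defining receptor of fibro-adipogenic cells, had 5.04 FPKM in library 3, within 3.95 to 6.32. Tendon markers were highest as a sum in library 2, at 751 FPKM, with 610 FPKM in library 3 and 377 to 521 in the remaining libraries, and 2 of 8 were highest in library 3. They were led by Fmod, at 215 FPKM in library 3 and 170.2 to 354 elsewhere, Thbs4, at 267 and 96.1 to 188, and Chad, at 40.4 and 40.6 to 78.0 FPKM.

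Endothelial markers had their lowest sum in library 3, 95.9 FPKM against 99.5 to 125.4, and 0 of 8 were highest there. Cdh5, Pecam1 and Egfl7 had 22.8, 25.1 and 11.7 FPKM in library 3, against 24.4 to 31.2, 21.3 to 29.4 and 10.7 to 17.8 elsewhere. Mural markers summed to 244 FPKM in library 3 and 157 to 202 elsewhere, with 5 of 8 highest in library 3, led by Rgs5, Acta2 and Tagln at 80.5, 69.5 and 51.6 FPKM in library 3 and at most 79.0, 44.5 and 38.4 FPKM elsewhere. Schwann cell markers summed to 131 FPKM in library 3 and 59.0 to 89.6 elsewhere, with 3 of 5 highest in library 3 and Mbp and Sox10 at 19.4 and 3.67 FPKM there. Fast fibre markers, which check the labelled tissue, summed to 72567 FPKM in library 3 and 65996 to 93250.3 elsewhere, led by Acta1, Tnnt3 and Mylpf, with 0 of 6 highest in library 3.

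**Figure D5:**
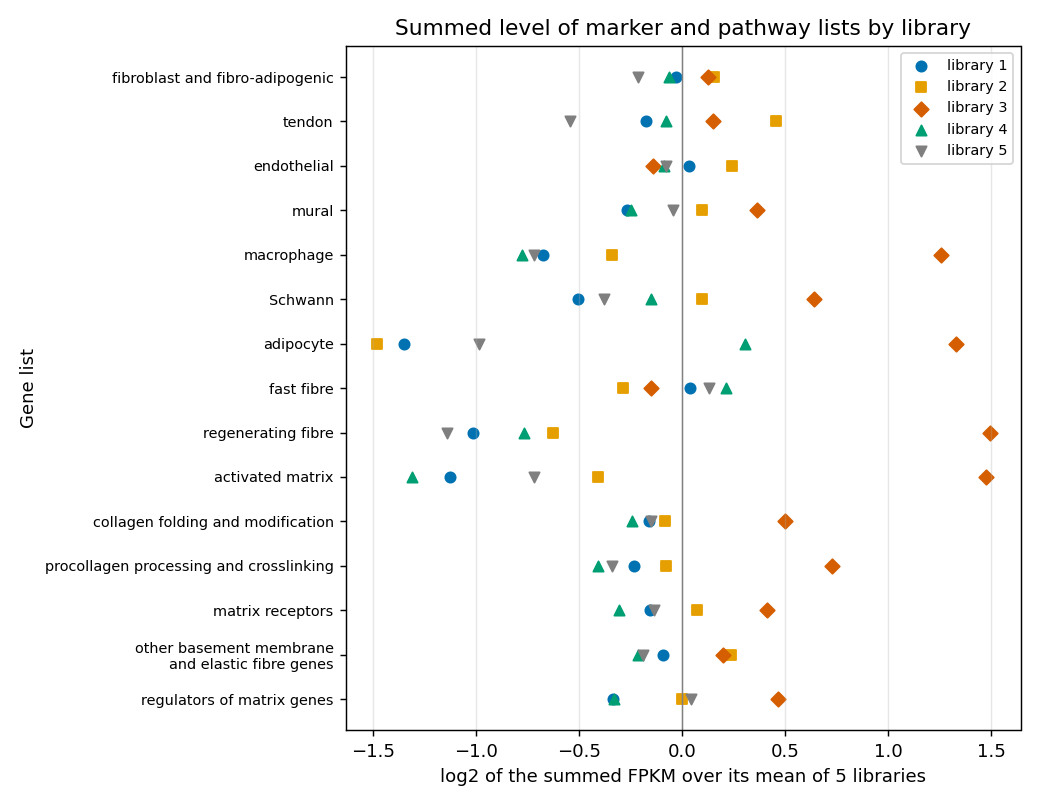
Summed FPKM of each gene list in each library as log2 over the mean of the 5 libraries, cell type markers above and pathway lists below. Library 3 lies more than 1 unit above the mean for the macrophage, adipocyte, regenerating fibre and activated matrix lists and near or below it for the fibroblast, tendon, endothelial and fast fibre lists.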

How the data were processed

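Messenger RNA of gastrocnemius muscle was measured in 5 libraries of 1 group. The authors deposited FPKM values, reads scaled to gene length and library total. Per the submitters' processing notes, the build was mm10 and the tools were HTSeq 0.6.1, STAR 2.5, edgeR, DESeq2 and TopHat, with no role for any. Annotation release, strand setting and the handling of reads that match several genes: not given in the sources used here.

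Gene identifiers were matched to symbols with the GENCODE M21 annotation of GRCm38 (34490 of 35275). The FPKM values are whole multiples of 1 read, and reads were recovered within 0.001 read for 20624 of 20655 annotated genes above 0 (99.85%); they served only for depth, counting error and 1 alternative. Of these genes, 4544 were whole at their annotated length and the others rest on a length found from the values. Depth was 16674504 to 25407988 reads, and limits given for a count of 0 rest on 3 reads and cover counting error only. No columns of other samples were used.

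Class and chain ratios were taken within each library on log2(FPKM + 1) and tested by sign-flip permutation (exact, two-sided, 32 patterns), adjusted over 17 ratios (Benjamini-Hochberg). The spread of genes averaging at least 1 FPKM was tested with limma 3.58.1 in R 4.3.3, each variance over its abundance trend against the F distribution (one-sided), adjusted over 10710 genes at a threshold of 0.05; it was tested on simulated data. Library counts are descriptive. Other steps used Python 3.11.15 with pandas 2.3.3, numpy 2.4.6 and matplotlib 3.10.9. The design named a test for counts and one for normalized values, and the latter was used because the table holds FPKM.

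Members and gene lists were chosen with earlier results of these data known. Every gene averaging at least 1 FPKM is named, with values per library for the 4 highest of each class and both genes of each ratio; of each list the 3 highest are named. A few genes within these rules are not reported here. P4ha1, P4ha2, Ddr2, Tgfb1, Pdgfra, Mfap5, Cd34, Lum, Pi16, Emilin1, Efemp2 and Matn1 lie outside that rule and were picked with their values known. The same holds for Itgam, Lep, Mymk and Pax7. The alternatives tried were the pseudocount (0.1), median-of-ratios scaling, other minimum levels, reads not divided by length, medians in place of sums, each library left out and, chosen after seeing the data, list sums without their most abundant gene and scaled list counts.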

Additional observations from a re-analysis of the deposited data

Results flagged for a closer look

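In 9 of 59 values checked, 1 library lay far from the other 4, its gap to the nearest of them being over 0.71 of the range of the 5. For independent, normally distributed values chance flags about 1 in 20 such groups. The values here are not independent, and the share flagged over all genes was not computed. Library 3 was the highest for 37.4% of the 10710 genes averaging at least 1 FPKM. The number of flags is therefore not a trait shown for these genes. In 7 of the 9, library 3 was the high one. Col3a1 had 332 FPKM in library 3 and 81.1 to 133 in the others. Col5a1 had 28.9 FPKM in library 3 and 7.09 to 11.9 in the others, Col5a2 30.1 and 7.20 to 11.4, and Col5a3 25.9 and 9.06 to 11.4. Fbn1 had 27.5 FPKM in library 3 and 6.09 to 11.04 in the others, Col18a1 8.07 and 3.28 to 4.40, and Col8a1 12.0 and 1.15 to 3.24. In the other two, Nid1 was low in library 4, at 14.2 FPKM against 20.4 to 22.9, and Col20a1 was high in library 2, at 2.38 FPKM against 1.87 to 1.98.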

How the results depend on the processing

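No paired analysis was possible because there is 1 group. Of 222 recomputed mean levels none moved by more than 1 SD, and of the chain and isoform ratios 95 of 98 recomputed values kept their sign. Leaving out a library cannot move a mean by 1 SD. Nor can it turn a ratio that has the same sign in all 5 libraries. Both counts were thus largely fixed in advance and do not measure how stable the values are. Medians of members in place of sums turned the log2 ratio to collagen IV to -1.52 for fibrillar and -3.04 for other collagens (collagen IV has 2 measured genes). The log2 ratio of Col5a3 to Col5a1 was -0.40 with reads not divided by length, and ranged from -0.061 to 0.10 with 1 library left out; that of Col5a2 to Col5a1 ranged from -0.090 to 0.022. Library 3 was the highest for 24 of 37 genes under scaling, against 27.0% of all genes. It was the highest for 20 of 20 at 10 FPKM or more (37.0% of 3813 genes), and 37 of all 62 (33.8% of 20840 genes above 0). Shares of all genes in the same setting follow in brackets, and those with a library left out were not computed. The number highest in library 1 was 0 at 10 FPKM or more (16.7%), 10 among all genes above 0 (22.1%), and 4 to 7 with a library left out. The number highest in library 2 was 1 under median-of-ratios scaling (13.6%), 0 at 10 FPKM or more (20.1%) and 5 among all genes (24.7%). With a library left out it was 2 to 17. In library 4 the number highest was 4 (27.5%), 0 (17.9%) and 5 (10.3%) in the same order of settings, and 1 to 3. In library 5 it was 5 under scaling (18.8%), 5 among all genes (9.09%), and 0 to 10 with a library left out. The largest of the counts with a library left out were all without library 3. The number lowest in library 4 was 15 at 10 FPKM or more, of 20 genes (27.2%), an alternative chosen after seeing the data. In limma's spread test 0 genes passed the adjusted threshold (616 unadjusted), 0 to 5 with a library left out, and 2 to 11 of the 37 genes had an unadjusted p under 0.05, the 5 and the 2 without library 3. Leaving out library 3 moved 1 mean by over 1.5 times, that of Col8a1, to 2.26 FPKM. With a library left out the sign-flip test cannot go below p = 0.125 (exact). Low reads limit the genes under 0.1 FPKM.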

Other observations

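Some list genes outside the matrix classes also varied between libraries. Timp1, an inhibitor of matrix proteases, had 34.4 FPKM in library 3 and 1.62 to 3.42 in the others, and Tnc, the gene of tenascin-C, 14.1 FPKM and 2.20 to 4.03. Mymk, a gene of myoblast fusion, had 22.1 FPKM in library 3 and 0 to 1.05 in the others. Pax7, a marker of muscle stem cells, was highest in library 1, at 1.07 FPKM, and had 0.481 FPKM in library 3. These genes were chosen after their values were seen.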
